A study of Schizosaccharomyces pombe with 8 samples.

Results

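Telomerase of the fission yeast Schizosaccharomyces pombe is described here through 4 genes, the telomerase RNA gene ter1 (SPNCRNA.214) and the genes of 3 of its protein partners, trt1 (SPBC29A3.14c), est1 (SPBC2D10.13) and pof8 (SPAC17G6.17). They were chosen by identifier, with earlier results of these data known, out of 7014 genes in the RIP-Seq table. Only ter1 was among the 40 RNAs with RNA-Seq counts, so the messages of the protein partners are described from the RIP-Seq alone. The comparison asked of these data is how the RNA subunit behaved next to the messages that encode the proteins it assembles with.

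RIP-Seq, the sequencing of RNA recovered with a protein, was done once on a strain whose Lsm8 carries 13 c-Myc epitopes (PP585, mating type h-, with the allele lsm8::lsm8-myc13-natMX6), and once as a control immunoprecipitation (IP). The strain used for the control IP is not given in the sources used here. RNA-Seq was done on 3 libraries of pof8+ cells (PP138, mating type h-) and 3 of pof8Δ cells (PP1723, mating type h-, with pof8::kanMX6 in place of the whole open reading frame). All 3 strains, the wild type included, carry the marker alleles ade6-M216 and leu1-32, and also ura4-D18 and his3-D1. The sources do not say that the libraries of a group came from separate cultures, so their spread may be technical, and each genotype is 1 strain.

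Telomerase adds repeats to chromosome ends by copying a short template within its RNA subunit, TER1. Trt1 is the reverse transcriptase that does the copying, Est1 helps to bring the enzyme to telomeres, and Pof8 is a La-related protein that binds TER1. TER1 is transcribed as a longer precursor with an intron. Its 3′ end is made by an incomplete splicing reaction that stops after the first cut, so that mature TER1 is exon 1 alone. The Sm ring sits on the precursor and is later exchanged for the ring Lsm2-8, which holds the new 3′ end. Lsm8 is the one subunit that sets this nuclear ring apart from the cytoplasmic ring Lsm1-7. Messages of the protein subunits are ordinary mRNAs with poly(A) tails, and Lsm1-7 takes part in the decay of such messages in the cytoplasm.

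The gene ter1 lies on the minus strand at chrI:3084610-3086022 in the RefSeq assembly ASM294v3, a span of 1413 bases with 2 exons. The reads were aligned to ASM294v2, an earlier release whose sequence was not compared here. The gene length behind the deposited RPKM of TER1 was also 1413 bases, which equals the whole span, so reads of the mature RNA, the intron and the second exon were counted together in the RNA-Seq. Exon 1 has 1207 bases, the intron 56 and exon 2 150. Shown first are the stretches that define the RNA as telomerase RNA and set its mature end, since the count of TER1 covers all of them. In the template stretch, the capitals mark GTAACC, the reverse complement of the core of the telomeric repeat, which begins at base 229 counted from the annotated 5′ end. In the end of exon 1, they mark the exonic part of ATTTTTTGG, the uridine-rich site of the Sm ring, which begins at base 1200. In the intron, they mark the hexamer GTATGT of the 5′ splice site, then TACTAAC as a likely branch site sequence, and the terminal CAG.
ter1 template stretch, chrI:3085759-3085824: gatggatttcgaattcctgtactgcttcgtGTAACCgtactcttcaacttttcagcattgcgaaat
ter1 exon 1 end, chrI:3084816-3084872: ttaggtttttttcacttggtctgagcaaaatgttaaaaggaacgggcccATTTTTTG
ter1 intron, chrI:3084760-3084815: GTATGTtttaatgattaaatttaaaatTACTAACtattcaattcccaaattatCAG

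Each of these 4 letter strings (CAG was not searched) was found 1 time on the sense strand of the gene and 0 times on the other strand. The site ATTTTTTGG shares 1 base with the hexamer GTATGT, the first G of the intron, so the uridine-rich site runs up to the place where the spliceosome cuts. Of 8895 genome windows of 1413 bases, 30.1% held GTAACC on either strand, 7.11% ATTTTTTGG, 50.8% GTATGT and 20.0% TACTAAC. These are matches of letters only.

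The protein genes are spread over chromosomes I and II. pof8 lies on the plus strand of chromosome I and has 1 exon of 1649 bases. est1 lies on the plus strand of chromosome II and has 2 exons of 1650 bases together. trt1 lies on the minus strand of chromosome II and has 16 exons of 2967 bases together, the highest number of exons among the 4625 coding genes with at least 10 control reads. RIP-Seq reads carried no strand, and ter1, pof8, trt1 and est1 are all overlapped by antisense transcripts in ASM294v3 that are not listed in the table, so reads of a gene and of its antisense partner cannot be told apart. The RNA-Seq libraries kept strand, but whether the counting used it is not given in the sources used here.

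In the Lsm8 IP, the RNA subunit was enriched 159-fold, and the messages of its protein partners stood between 0.713 and 1.89 times their level in the control IP. TER1 had 51276 reads with Lsm8 against 124 in the control IP. For trt1 there were 181 against 37 reads, for est1 35 against 9, and for pof8 37 against 20. The whole libraries held 6604836 and 942080 recovered reads. Each gene's reads were divided by the median count of its library over all listed genes, 96 reads for Lsm8 and 37 for the control, to give normalized counts. On this scale TER1 went from 3.35 in the control IP to 534 in the Lsm8 IP, a ratio of 159 (95% interval 134 to 192, exact Clopper-Pearson). With 1 library of each kind there is no replicate check and no test, and all intervals on reads cover counting error only. They compare the libraries, not the conditions.

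**Figure D1:**
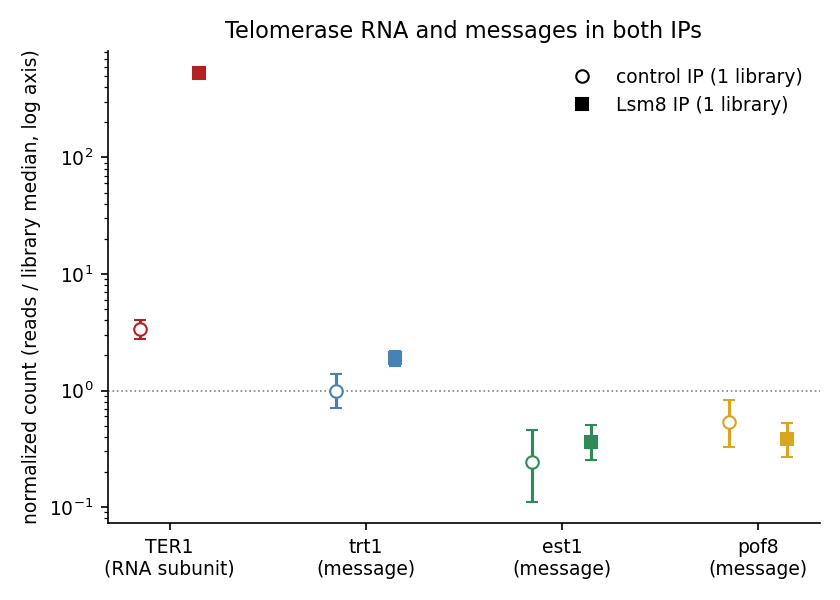
Normalized counts (reads divided by the library median, log axis) of TER1 and the 3 messages in the control IP (open circles) and the Lsm8 IP (filled squares), 1 library each, with exact 95% Poisson intervals of the reads. TER1 stands at 3.35 and 534, while the 3 messages lie between 0.243 and 1.89 in both libraries.

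The catalytic subunit's message, trt1, had a normalized count of 1 in the control IP and of 1.89 in the Lsm8 IP, a ratio of 1.89 (95% interval 1.32 to 2.76). est1 had 0.243 and 0.365, a ratio of 1.5 (0.706 to 3.55). pof8 had 0.541 and 0.385, a ratio of 0.713 (0.403 to 1.30). Thus trt1 had more normalized reads in the Lsm8 IP beyond counting error, whereas the intervals of est1 and pof8 both include 1.

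The rule of the study for enrichment asks for at least 10 normalized counts more in the Lsm8 IP and a ratio above 2. By this rule 1 of the 4 genes was enriched, TER1, with a difference of 531, and 0 of the 3 messages were. The rule called 35 of the 6578 genes with a read in either library, or 0.532%. The minimum difference weighs heavily on rare messages: at their control levels trt1 would have been called at a ratio of 11.0 with 1056 reads, pof8 at 19.5 with 1012 reads and est1 at 42.1 with 984 reads. Ratios below these could not be called enriched by this rule at those control levels, whatever their counting error. Without the minimum difference the rule called 1110 of the 6578 genes, and TER1 was again the only one of the 4 among them. These include 157 genes with no control read, which pass with any Lsm8 read. Of the 6323 genes with reads in both libraries, 15.1% had a ratio above 2, so 3 messages below 2 are no unusual count.

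Among the 5523 genes with at least 10 control reads, TER1 ranked 4 by ratio. The genes next above it were snu4, the U4 snRNA, at 466 (449 to 484), and the non-coding RNA SPNCRNA.1531 at 785 (565 to 1128). The study's list marks the annotation of SPNCRNA.1531 as overlapping that of SPNCRNA.1532, so the ranks above TER1 may not all be separate RNAs. The genes next below were SPNCRNA.240 at 142 (96.3 to 220) and the small nucleolar RNA snR36 at 113 (68.4 to 202). The intervals of TER1 and SPNCRNA.240 overlap, so their order does not hold beyond counting error, while that of snu4 lies wholly above. In reads, TER1 was rank 6 of 7014 genes in the Lsm8 IP, with 0.776% of the reads (95% interval 0.770% to 0.783%), and rank 1216 in the control IP, with 0.0132% (0.0109% to 0.0157%).

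**Figure D2:**
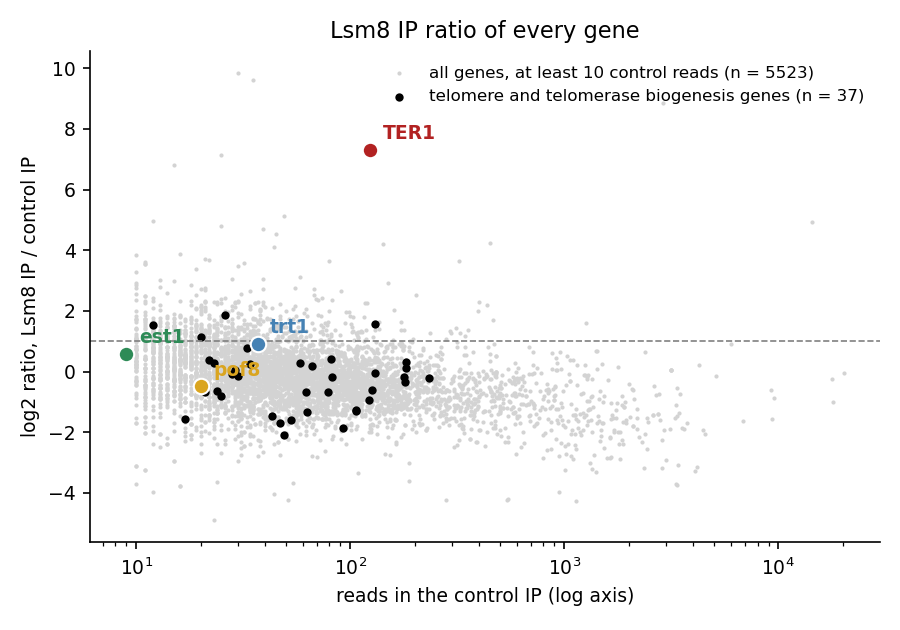
Log2 ratio of normalized counts, Lsm8 IP over control IP, against reads in the control IP (log axis) for the 5523 genes with at least 10 control reads (grey), 37 telomere and telomerase biogenesis genes (black) and the 4 telomerase genes (coloured). The dashed line marks a ratio of 2. TER1 stands far above genes of like depth, and trt1, est1 and pof8 (the coloured points near the line or below) lie within the cloud. est1 is drawn with its 9 control reads.

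Read against genes of like depth, TER1 stood outside the coding genes and the messages stood within them. Of 541 coding genes with between 0.8 and 1.25 times the control reads of TER1, the highest ratio was 7.64 and the median 0.767. Of 835 coding genes with about the control reads of trt1, 86.8% had a lower ratio than trt1, and the 5th and 95th percentiles were 0.333 and 2.67. For est1, 55.1% of 187 genes of like depth had a lower ratio, and for pof8 23.8% of 618 genes. All 3 messages were inside the central 90% of coding genes of their own depth.

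A contrast of TER1 with each message that does not depend on how the libraries are scaled is the odds ratio of the reads. For every read of trt1 there were 3.35 reads of TER1 in the control IP and 283 in the Lsm8 IP, an odds ratio of 84.4 (exact conditional 95% interval 55.2 to 127). For est1 the corresponding reads were 13.8 and 1465, with an odds ratio of 106 (43.9 to 231). For pof8 they were 6.20 and 1386, with an odds ratio of 223 (119 to 407). With the 3 messages pooled, 66 reads in the control IP and 253 in the Lsm8 IP, the odds ratio was 108 (76.7 to 150). The lowest bound of the 3 single contrasts is thus 43.9. Relative to the control IP, the RNA subunit exceeded each of these messages in the Lsm8 IP by far more than counting error.

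Among the messages, 3 pairs were set side by side. The odds ratio of trt1 to pof8 was 2.63 (1.30 to 5.28), so relative to the control IP trt1 was higher than pof8 beyond counting error. Between trt1 and est1 it was 1.26 (0.489 to 2.96), and between est1 and pof8 2.09 (0.780 to 5.95), and both intervals include 1 and reach up to 2.96 and 5.95. The 9 control reads of est1 set the width of its intervals.

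How the libraries were scaled moved the ratios but not these contrasts. Together snu4 and the U6 snRNA snu6 made up 70.0% of Lsm8 IP reads but 1.83% of control IP reads. Scaled to library totals, the ratio of TER1 was 59.0, and those of trt1, est1 and pof8 fell to 0.698, 0.555 and 0.264, so that trt1 and est1 turned from above to below 1. With snu4 and snu6 left out of the totals, TER1 was at 193, trt1 at 2.29, above 2, and est1 at 1.82. TER1 was called enriched and the 3 messages were not in each of the 6 settings of scaling and threshold. For the messages this says little, since the minimum difference was dropped only under the median scaling. Dropping it under totals without snu4 and snu6, where trt1 was above 2, was not tried. Of the scalings tried, the full library totals were the one under which trt1 and est1 fell below 1.

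Compared per kilobase of exon, TER1 was also the most abundant of the 4 RNAs in the control IP, at 2.47 normalized counts per kilobase against 0.337 for trt1, 0.328 for pof8 and 0.147 for est1. In the Lsm8 IP the values were 394 for TER1, 0.635 for trt1, 0.234 for pof8 and 0.221 for est1. The level of TER1 per kilobase was 7.33 times that of trt1 in the control IP and 619 times in the Lsm8 IP. These are levels in precipitates and not in cells.

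3 small RNAs were set beside TER1. snu6, the best known partner of Lsm2-8, had 1131410 against 14329 reads, a ratio of 30.4 (29.9 to 30.9). For snu4 there were 3494435 against 2889 reads. snR101, which served as loading control on the study's northern blots, had 369 against 21 reads, a ratio of 6.77 (4.36 to 11.1). As an odds ratio, the Lsm8 IP to control IP ratio of TER1 was 5.24 times that of snu6 (Woolf 95% interval 4.39 to 6.25). It was 0.342 times that of snu4 (0.286 to 0.409) and 23.5 times that of snR101 (14.7 to 37.8). These values depend on the reads of each RNA in the control IP. No input library was among the samples, so the share of each RNA recovered with Lsm8 was not measured.

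Genes that lie beside the 4 loci gave no such signal. The gene next to ter1 on its own strand, SPAC16A10.03c, was 316 bases away and had 236 against 122 reads, a ratio of 0.746 (0.597 to 0.935). The lysine tRNA gene on its other side had 0 reads in both libraries. Beside pof8, ysh1 had a ratio of 0.801 and SPNCRNA.922 of 0.732. Beside trt1, rsm23 had 0.352 and SPNCRNA.1484 0.686. est1 overlaps myo51 by 99 bases on the other strand, and myo51 had a ratio of 0.696. rhp23, next to est1, had 0.774. The interval of trt1 lay above those of rsm23 (0.246 to 0.503) and SPNCRNA.1484 (0.462 to 1.03), while that of est1 overlapped the interval of myo51 (0.441 to 1.12).

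The proteins that build TER1 and the telomere were represented by 38 further genes, of which 37 had at least 10 control reads. The 1 left out was ten1, a telomere capping gene, with 6 and 2 reads. 4 of the 37 had a ratio above 2, or 10.8%, where 10.4% of all 5523 genes had, and 0 were enriched. Their median ratio was 0.872, against 0.849 over all 5523 genes. The share above 2 was thus near that of all genes.

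The 4 genes above 2 were lsm2, lsm8, rad32 and nbs1. Of the 8 Lsm subunit genes, lsm2, shared by both Lsm rings, had 246 and 26 reads, a ratio of 3.65 (2.43 to 5.69), and lsm8, the gene of the precipitated protein, had 90 and 12 reads, a ratio of 2.89 (1.58 to 5.80). 4 of the 8 Lsm genes were above 1, with a median of 1.01 over the 8, and lsm7 was the lowest at 0.312 (0.198 to 0.488). rad32, also called mre11, encodes the nuclease of the Mre11-Rad50-Nbs1 complex that acts at double-strand breaks and telomeres. It had 1004 and 131 reads, a ratio of 2.95 (2.46 to 3.57) and a difference of 6.92 normalized counts. nbs1, of the same complex, had 113 and 20 reads, a ratio of 2.18 (1.35 to 3.70), and rad50 had 148 and 33 reads, a ratio of 1.73 (1.18 to 2.60). Only lsm2 and rad32 had a lower bound above 2. Scaled to library totals 0 of the 37 were above 2, beside 0.996% of all 5523 genes.

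Counts above 1 need a baseline, since the median over all 5523 genes was 0.849. Across those genes 2163 lay above 1, as did 14 of the 37. Of the 8 Sm ring and cap genes, 0 had a ratio above 1, from 0.398 for smd1 to 0.972 for smf1. The cofactor genes bmc1 and thc1, whose products bind TER1 with Pof8, had 0.912 and 0.624. Of the 6 shelterin genes, which encode the telomere-binding complex, 3 were above 1, from 0.359 for ccq1 to 1.33 for pot1, the single-strand binding subunit. Of the 9 telomere maintenance genes, rad32 and nbs1 among them, 6 were above 1 and the median was 1.18. The end-binding genes pku70 and pku80 had 1.20 (0.890 to 1.65) and 1.02 (0.660 to 1.63), the checkpoint kinase gene tel1 had 1.18 (0.794 to 1.79), and the lowest was stn1 at 0.340 (0.158 to 0.724), with 15 and 17 reads. The 4 nuclear RNA turnover genes had a median of 0.338, from 0.236 for rrp6, a nuclease of the nuclear exosome, to 1.08 for pab2, the nuclear poly(A)-binding protein. trt1, at 1.89, was higher than 33 of these 37 genes.

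The ratio of coding genes moved with the number of annotated exons, a pattern noticed after the values were seen. Among coding genes with at least 10 control reads, the median ratio was 0.755 for 2322 genes with 1 exon, 0.818 for 1019 genes with 2, 0.929 for 620 genes with 3, 1.09 for 502 genes with 4 or 5, and 1.20 for 162 genes with 6 or more. The same order of the medians was found in genes with 10 to under 30, 30 to under 60, and 60 or more control reads. trt1, with 16 exons, had a ratio above 89.0% of all of these coding genes and above 79.6% of those with 6 or more exons. pof8, with 1 exon and a ratio of 0.713, lay close to the median of its class over all depths. It has 20 control reads, and 1-exon genes with 10 to under 30 had a higher median, 1.03 (lower quartile 0.658). The part of exon number in the ratios of trt1, est1 and pof8 was not tested.

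**Figure D3:**
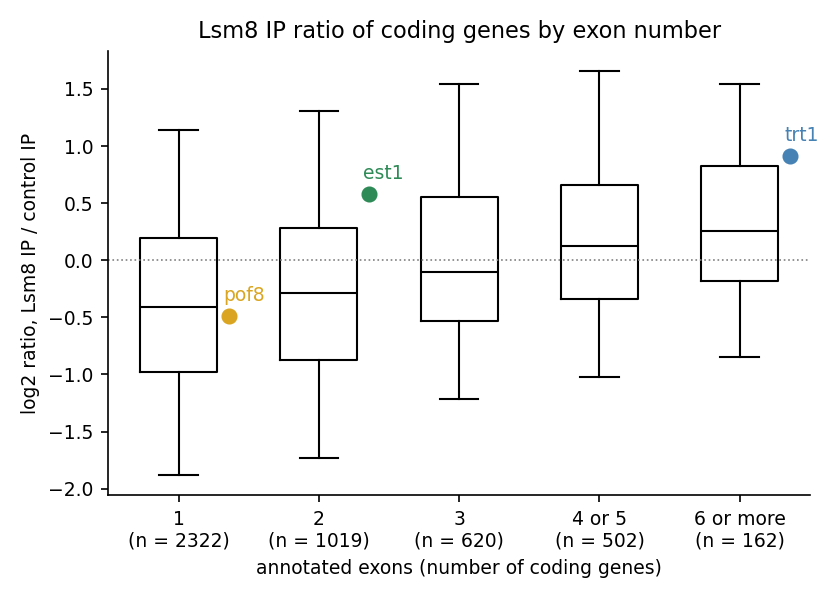
Log2 ratio of normalized counts, Lsm8 IP over control IP, of coding genes with at least 10 control reads, by number of annotated exons. Boxes show quartiles and the median, whiskers the 5th and 95th percentiles, and coloured points are trt1, est1 (9 control reads, drawn for reference) and pof8. The medians go from a ratio of 0.755 with 1 exon to 1.20 with 6 or more.

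In pof8Δ cells TER1 fell to 25.7% of its pof8+ level. TER1 counts were 11743, 15266 and 10144 reads in pof8+ replicates 1 to 3 and 3843, 3630 and 4348 reads in pof8Δ replicates 1 to 3. Library totals were 49448968 to 60098565 reads in pof8+ and 62672693 to 72951191 in pof8Δ. In reads per 1000000 library reads (CPM), TER1 stood at 234, 254 and 205 in pof8+ and at 60.3, 57.9 and 59.6 in pof8Δ libraries. The groups did not overlap, and the lowest pof8+ library was 3.40 times the highest pof8Δ library.

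The means were 231 ± 24.6 CPM in pof8+ and 59.3 ± 1.23 CPM in pof8Δ (SD, n = 3 each), or 164 ± 17.4 and 42.0 ± 0.868 RPKM at the length of 1413 bases. The spread between libraries was 10.6% of the mean in pof8+ and 2.07% in pof8Δ. The log2 fold change was -1.96 (standard error 0.113, 95% interval -2.20 to -1.72, adjusted p = 1.22e-10, quasi-likelihood test of edgeR, Benjamini-Hochberg adjustment over 40 RNAs) and the 95% interval of the remaining level was 21.7% to 30.3%. Whether fewer cells held TER1 or each cell held less cannot be told apart in RNA from whole cultures. Since the deleted gene was not among the RNAs with counts, the genotype was not checked on its own reads.

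**Figure D4:**
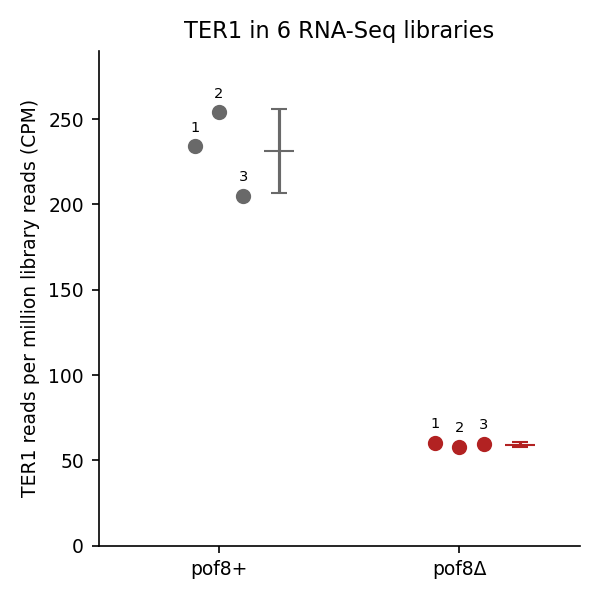
TER1 reads per 1000000 library reads (CPM) in each RNA-Seq library, with replicate numbers above the points and the mean ± SD of 3 libraries beside them. The pof8+ libraries sit between 205 and 254 CPM and the pof8Δ libraries between 57.9 and 60.3 CPM.

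A call asked for a log2 fold change beyond 1 in either direction with an adjusted p-value under 0.05. TER1 was the 1 RNA of the 40 called lower (2.5%), and no RNA, 0 of 40, was called higher. At an unadjusted p under 0.05 from edgeR's quasi-likelihood test, 5 RNAs were lower and 2 higher. At an adjusted p under 0.05 from the same test, without a minimum fold change, 4 were lower and 1 higher. With fold change and adjusted p both asked for, DESeq2's Wald test also called 1 lower and 0 higher. Libraries of the groups did not overlap, with pof8Δ lower, for 8 of the 40 RNAs (20%). Over the other 39 RNAs the median was -0.070 on the log2 scale, from -0.96 to 0.37. Relative to that median TER1 stood at -1.89, and at -1.90 with TMM factors, -1.90 with DESeq2 size factors and -1.89 with the sum of the listed RNAs, scalings that moved the median itself to 0.030, 0.026 and 0.045. These RNAs come from the authors' list for the Lsm8 IP. That list has 44 RNAs where the rule of the study called 35, so not all of them met it. The shares hold among the listed RNAs and not across the genome. By RPKM, TER1 was rank 23 of the 40 in pof8+ and rank 27 in pof8Δ.

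A ratio of reads within a library is free of the scaling between libraries. TER1 reads per read of snu6 were 12.8, 12.8 and 10.1 in pof8+ replicates 1 to 3 and 2.71, 3.02 and 3.81 in pof8Δ replicates 1 to 3. The pof8Δ values were all lower, with a log2 difference of -1.91 (two-sided exact permutation test, p = 0.1, the smallest that 3 against 3 allow). With each of the 39 other RNAs as reference in turn, TER1 was lower in pof8Δ, without overlap between the groups, in 39 of 39. The log2 differences ran from -2.33 relative to pfl2 to -0.999 relative to rds1, with a median of -1.90. They share the TER1 counts and so are not independent of each other.

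**Figure D5:**
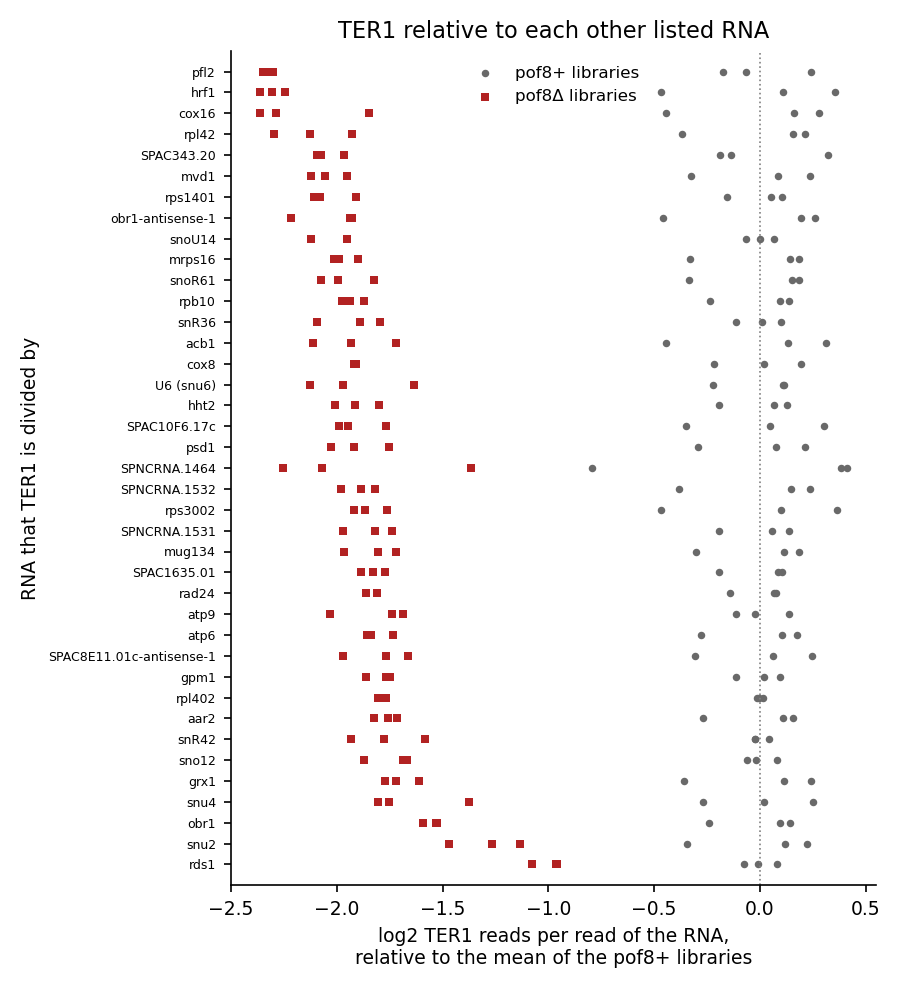
Log2 of TER1 reads per read of each of the 39 other listed RNAs, relative to the mean of the pof8+ libraries for that RNA, for 3 pof8+ libraries (grey circles) and 3 pof8Δ libraries (red squares). In every row the red squares lie to the left of the grey circles, with mean differences from -2.33 (pfl2) to -0.999 (rds1).

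The RNAs whose CPM followed TER1 most closely over the 6 libraries were rds1 (Pearson's r of log2 CPM 0.996), obr1 (0.937) and rad24 (0.890). Within groups, after taking out the group means, the values were 0.761, -0.142 and 0.624. They are given as a description, since the 6 libraries fall into 2 groups. rds1, the nearest, went from 187, 191 and 172 CPM to 93.6, 89.8 and 100.2 CPM, a log2 fold change of -0.96 (adjusted p = 1.32e-06, edgeR's quasi-likelihood test), just short of the threshold of 1.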

How the data were processed

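The 4 genes and the gene lists were chosen with earlier results of these data known. Per the labels and the study's methods, the authors aligned reads with STAR 2.5.2b to ASM294v2 and counted unambiguous, uniquely mapped reads per gene. For the RIP-Seq (40 bp single-end reads, strand ignored), the authors deposited a signal (reads over the library median) and the ratio of the Lsm8 IP to the control IP. Whole reads were worked back for 7014 Lsm8 values (× 96) and 6323 control values (37 × signal / ratio), within 0.001, with totals of 6604836 and 942080. The control reads of 98 genes without Lsm8 reads could not be recovered. For the RNA-Seq (100 bp, stranded, ribo-depleted), the authors deposited counts of 40 RNAs and their average RPKM, from which library totals of 49448968 to 72951191 reads were solved. The same deposited table, of 44 RNAs marked in the Lsm8 IP, holds the authors' log2 fold changes and log2 CPM (edgeR 3.14.0), likelihood ratio as a score, p-values and a mark of enriched genes, none of which was used.

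edgeR 4.0.16 was fitted to the counts (quasi-likelihood, library totals, no TMM since factors over all genes could not be computed from 40 RNAs). The filter of 1 CPM in 3 libraries removed 0 RNAs. Standard errors come from the F statistic, with a spread shared across RNAs. In simulated data on the 40 RNAs, this fit called 100 of 100 changes of 1.5 and 100 of 100 of 2 on the log2 scale, and 0 of 1800 unchanged RNAs. Every simulated RNA had the same fixed spread, so RNAs with a wider spread were not tried. DESeq2 1.42.0 (R 4.3.3) served as an alternative. Same-numbered RNA-Seq libraries did not deviate together, so the numbers were not used as pairs. Of the 7014 genes, 6846 matched RefSeq ASM294v3, which gave sequences, exons and positions. Named are the 4 genes, their neighbours, the extremes of each list and any listed gene above a ratio of 2, the genes ranked next to TER1, the 3 RNAs most like it, and snu6, snu4 and snR101. pfl2, rad50, pku70, pku80 and tel1 were named only after their values were known.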

Additional observations from a re-analysis of the deposited data

How the results depend on the processing

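Scaling decided the RIP ratios. With library totals they were 59.0 for TER1, 0.698 for trt1, 0.555 for est1 and 0.264 for pof8, with 18 of 6578 genes enriched. At that scaling 0 of the 37 listed genes were above 2, beside 0.996% of all 5523 genes. With totals without snu4 and snu6 TER1 was at 193. Without a minimum difference 1110 of 6578 genes passed. With at least 30 control reads 1 of 26 listed genes was above 2 (3.85%), beside 6.36% of all 4027 genes. Pooling the 3 messages gave an odds ratio of 108 in place of 223 for pof8. The log2 fold change of TER1 kept its direction and its call in all 15 fits, from -2.04 to -1.84, and from -2.04 to -1.89 with 1 library left out, with a largest adjusted p of 4.27e-05. The number of RNAs called lower was from 1 to 2 with 1 library left out, rds1 being added without pof8+ replicate 3 and without pof8Δ replicate 3. Relative to U6, TER1 ranged from -2.05 to -1.80 with 1 library left out, and 39 RNAs stayed without overlap. TMM factors over the listed RNAs, DESeq2 size factors and the sum of the listed RNAs moved the median of the other 39 RNAs from -0.070 to 0.030, 0.026 and 0.045.

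Same-numbered RNA-Seq libraries correlated at 0.335, -0.677 and 0.198 in their deviations from the group means. Differently numbered ones ran from -0.691 (pof8+ replicate 3 with pof8Δ replicate 1) to 0.729 (pof8+ replicate 3 with pof8Δ replicate 2). In all, 2 of 6 libraries correlated best with their own number, so the numbers were read as names only. With the replicate number as a block, TER1 was at -1.96, with 1 RNA lower and 0 higher, and -1.91 relative to U6. Relative to each of 39 RNAs, TER1 was lower in pof8Δ in every same-numbered pair of libraries. edgeR's newer estimation of the spread, added after seeing the data, gave -1.97. With 1 library per IP, no difference between IPs could be set against replicates, and at 9 and 20 control reads est1 and pof8 could not be told from the median gene.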
